A study of Rattus norvegicus with 12 samples.

Results

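The genes described here are Id1, Id2, Id3, Hes1, Hes5 and Hes6, helix-loop-helix regulators of neurogenesis. They were taken at every probe set of a rat expression array whose annotation gives 1 of these 6 symbols, which yielded 6 of the 10411 genes and 8 of the 15866 probe sets tested: 1 each for Id1, Id3, Hes1 and Hes6, and 2 each for Id2 and Hes5. No further probe set listed one of them among several symbols. The arrays carried RNA from cultures of the ventral midbrain of CD1 rat embryos at embryonic day 12, kept for 6 days in serum-free medium that held bFGF (20 ng/ml), a fibroblast growth factor, and SHH (50 ng/ml), Sonic hedgehog, and then for 3 days without both. On day 9 the cultures either received 56 mM KCl for 2 h, which depolarizes neurons and opens their voltage-gated calcium channels, or stayed in control medium. The 4 groups, with 3 arrays each, were depolarized cultures collected 30 min after the KCl (replicates 1 to 3), control cultures collected at the same time (1 to 3), depolarized cultures collected 2 h after the KCl (4 to 6) and their control cultures (4 to 6). All groups shared the strain, the age and the growth factors. The embryos, from 4 pregnant rats, had been mixed and divided into 3 groups, and RNA of duplicate cultures was pooled, so that replicates reflect pooled cultures and not animals.

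ID proteins have the helix-loop-helix that pairs these factors but lack the basic stretch that binds DNA. They capture E proteins and thereby keep proneural factors inactive, and their genes are classical targets of bone morphogenetic protein (BMP) signalling through SMAD proteins. HES1 and HES5 are DNA-binding repressors induced by Notch receptors through the DNA-binding protein RBPJ, and they keep neural progenitors from differentiating. HES1 also represses its own gene, so that its mRNA can rise and fall within hours, while HES6 is known in the mouse as an antagonist of HES1 that favours neuronal differentiation.

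The promoters of Hes1 and Hes5 are shown because the responses of these genes changed most between the collection times. For Hes5 this holds for 1 of its 2 probe sets. The promoter of Id1 is shown because it had the largest rise among Id1, Id2 and Id3. Each window runs from 250 bases before to 50 bases after the start used for that promoter in RefSeq's GRCr8 assembly. For Hes1 and Id2 that start is the outer end of the annotated gene, but for Id1, Id3, Hes5 and Hes6 it lies inside the gene. The Hes6 window (99451047 to 99451346) falls almost wholly within its gene as annotated (99449375 to 99451343). Capitals mark the RBPJ core TGGGAA or the N-box CACNAG, the element that HES proteins bind, on either strand.
Hes1, chr11:84212996-84213295, minus strand: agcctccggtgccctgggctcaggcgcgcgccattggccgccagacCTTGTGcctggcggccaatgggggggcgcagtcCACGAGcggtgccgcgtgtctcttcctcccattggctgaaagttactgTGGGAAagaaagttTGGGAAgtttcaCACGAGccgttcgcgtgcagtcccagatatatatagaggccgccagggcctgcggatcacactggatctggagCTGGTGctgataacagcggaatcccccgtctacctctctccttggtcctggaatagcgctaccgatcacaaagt
Hes5, chr5:170804327-170804626, plus strand: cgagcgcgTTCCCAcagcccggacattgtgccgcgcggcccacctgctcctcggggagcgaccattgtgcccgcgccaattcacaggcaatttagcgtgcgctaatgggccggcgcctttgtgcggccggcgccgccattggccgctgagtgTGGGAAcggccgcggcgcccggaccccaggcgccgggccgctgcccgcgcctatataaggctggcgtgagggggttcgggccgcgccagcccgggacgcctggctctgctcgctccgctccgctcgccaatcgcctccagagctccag
Id1, chr3:161671314-161671613, plus strand: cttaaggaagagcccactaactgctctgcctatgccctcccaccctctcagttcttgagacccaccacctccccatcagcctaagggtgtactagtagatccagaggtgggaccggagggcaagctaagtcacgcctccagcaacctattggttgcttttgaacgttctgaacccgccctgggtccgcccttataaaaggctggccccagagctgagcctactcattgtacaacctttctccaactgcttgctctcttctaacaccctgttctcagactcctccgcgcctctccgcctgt
The Hes1 window holds 2 RBPJ cores and 4 N-boxes, and the Hes5 window 2 RBPJ cores and 0 N-boxes. Of the 33465 promoter windows of this length, 25.7% hold an RBPJ core and 43.1% an N-box. The windows of Id1, Id2, Id3 and Hes6 hold 0 RBPJ cores, and N-boxes were found in those of Id2 (1) and Hes6 (2). Neither the full cyclic AMP response element TGACGTCA (1.83% of all windows), its core TGACG (21.2%) nor the AP-1 element TGANTCA (7.33%) was found in any of the 6 windows. The GC-rich SMAD element GGCGCC, present in 11% of all windows, occurred 4 times in that of Hes5 and in none of the other 5. The E-box CANNTG (72.1% of all windows) occurred once in the windows of Id1, Id2, Hes5 and Hes6. Both strands were searched, and no 2 different motifs overlapped in these windows. A match in such a window describes its letters and does not show that a factor binds there. Sequence outside the windows was not searched, so a motif absent from a window may still lie elsewhere near the gene.

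Values are log2 expression levels, so that a difference of 1 is a doubling, and levels of different probe sets are not compared. Tests are moderated tests by limma on all 12 arrays, with p adjusted over all 15866 probe sets and called at an adjusted p under 0.05. Across probe sets, the correlation between arrays was 0.9957 to 0.9979 within a group and 0.9717 to 0.9922 between groups. The mean level of the 8 measured markers of dopaminergic neurons lay between 7.60 and 8.69 over the arrays. Since the table has no detection calls, presence or absence cannot be read from such a level. In this bulk RNA, fewer cells of a type and less RNA per cell cannot be told apart.

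**Figure D1:**
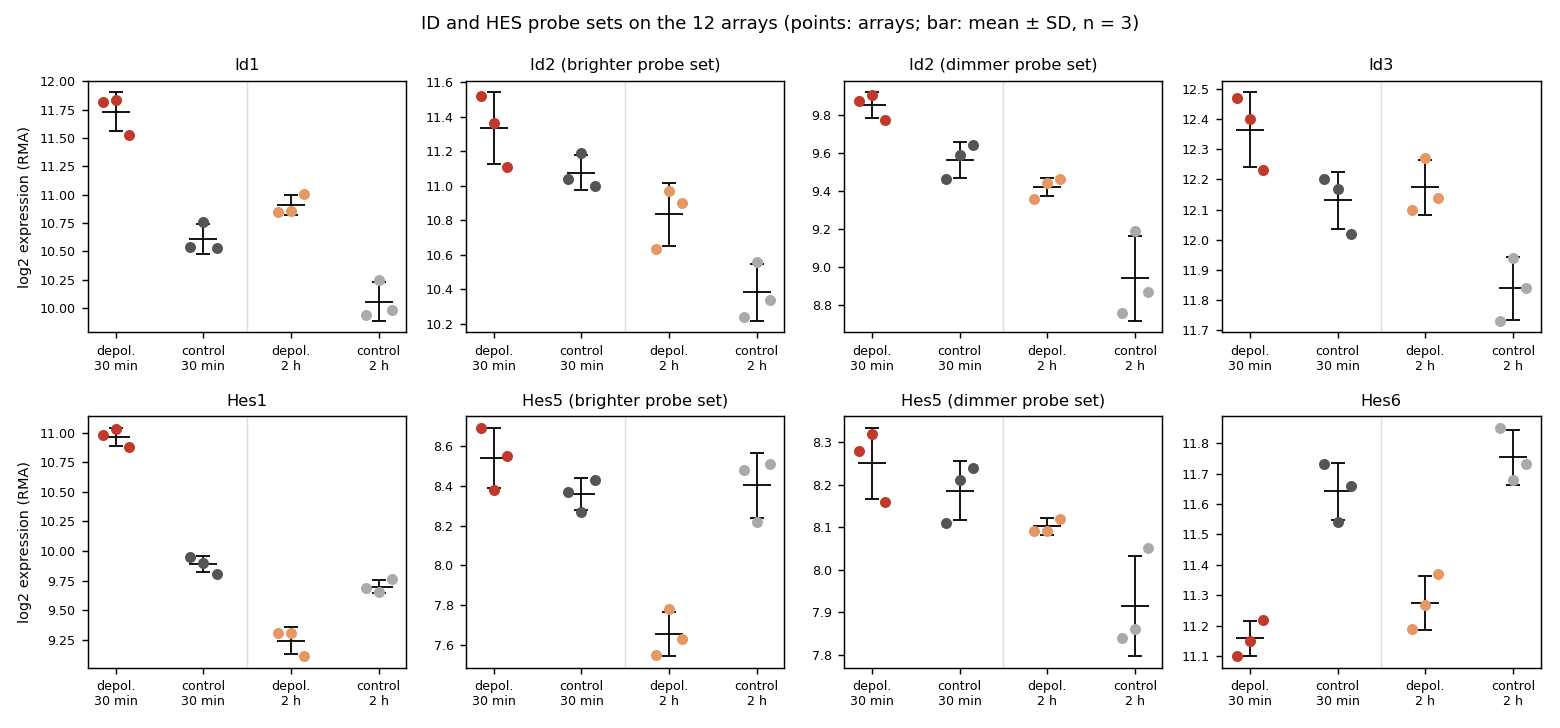
Log2 expression of the 8 ID and HES probe sets on each of the 12 arrays, with depolarized left of control at 30 min and again at 2 h; points are arrays and bars the mean ± SD (n = 3). Hes1 lay at 10.88 to 11.03 in depolarized cultures at 30 min, above all other arrays, and at 9.11 to 9.31 in depolarized cultures at 2 h, below all other arrays.

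Hes1, the Notch-induced repressor, changed in opposite directions at the 2 collection times. At 30 min it was at 10.98, 11.03 and 10.88 in depolarized cultures, against 9.95, 9.90 and 9.81 in controls. At 2 h it was at 9.31, 9.31 and 9.11 in depolarized cultures, against 9.69, 9.65 and 9.76 in controls. The groups were apart at both times, with depolarized cultures above their controls at 30 min and below them at 2 h. Different cultures were collected at the 2 times. The rise was 2.11-fold (log2 difference 1.07, SE 0.07, adjusted p = 2.57e-08 by limma), and the later difference was -0.45 (SE 0.07, adjusted p = 0.000252). The response at 2 h minus that at 30 min was -1.53 (SE 0.10, 95% interval -1.74 to -1.31, adjusted p = 1.88e-07), the 22nd largest in size of the 15866 probe sets. A rise at 30 min together with a fall at 2 h, both past the threshold of adjusted p 0.05, was found in 106 probe sets (0.668%).

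Hes5, the other Notch-induced repressor, was measured by 2 probe sets that gave different results. The brighter, designed from a RefSeq transcript, was at 8.69, 8.38 and 8.55 in depolarized cultures at 30 min, against 8.37, 8.27 and 8.43 in controls. Later, at 2 h, it was at 7.55, 7.78 and 7.63 in depolarized cultures, against 8.48, 8.22 and 8.51 in controls. The groups overlapped at 30 min (0.18, SE 0.09, adjusted p = 0.198), and at 2 h all depolarized arrays lay below the controls (-0.75, SE 0.09, adjusted p = 3.35e-05). This was the 36th largest fall at 2 h among all probe sets. The responses at the 2 times differed by -0.93 (SE 0.13, adjusted p = 0.000206).

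The dimmer Hes5 probe set, designed from an expressed sequence tag, did not pass at either time. It was at 8.28, 8.32 and 8.16 in depolarized cultures at 30 min, against 8.11, 8.21 and 8.24 in controls, and the groups overlapped (0.06, adjusted p = 0.613). At 2 h it was at 8.09, 8.09 and 8.12 in depolarized cultures, against 7.84, 7.86 and 8.05 in controls. The depolarized arrays then lay above the controls by 0.19 (SE 0.07, adjusted p = 0.0638), a difference that passed without control replicate 6 (0.26, adjusted p = 0.0146). A pass was also seen after median centring (adjusted p = 0.0324), after quantile normalization (0.0462) and with array weights (0.0345). Over the 12 arrays the 2 Hes5 probe sets correlated at 0.14, while the 2 Id2 probe sets correlated at 0.96. The fall of Hes5 at 2 h therefore rests on 1 of its 2 probe sets.

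Hes6, the antagonist of HES1, was lower after depolarization at both times. At 30 min it was at 11.10, 11.15 and 11.22 in depolarized cultures, against 11.73, 11.54 and 11.66 in controls. Later, at 2 h, it was at 11.19, 11.27 and 11.37 in depolarized cultures, against 11.85, 11.68 and 11.73 in controls. No depolarized array reached a control at either time, and the difference was -0.48 at both (SE 0.07; adjusted p = 9.42e-05 and 0.000171). The difference between the responses was 0.0055, with a 95% interval from -0.21 to 0.22. A fall past the threshold at both times was found in 994 probe sets (6.26%).

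Of Id1, Id2 and Id3, Id1 had the largest response. It was at 11.82, 11.84 and 11.53 in depolarized cultures at 30 min, against 10.54, 10.76 and 10.53 in controls. At 2 h it was at 10.85, 10.86 and 11.01 in depolarized cultures, against 9.94, 10.25 and 9.98 in controls. All depolarized arrays were above their controls, by 1.12 at 30 min (2.18-fold, SE 0.10, adjusted p = 5.4e-07) and by 0.85 at 2 h (1.80-fold, SE 0.10, adjusted p = 2.11e-05). The response at 2 h minus that at 30 min was -0.27 (95% interval -0.57 to 0.03, adjusted p = 0.247). A rise past the threshold at both times was found in 601 probe sets (3.79%).

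Id2 gave similar differences on both of its probe sets. The brighter was at 11.52, 11.36 and 11.11 in depolarized cultures at 30 min, against 11.04, 11.19 and 11.00 in controls, and at 10.63, 10.97 and 10.90 in depolarized cultures at 2 h, against 10.24, 10.56 and 10.34 in controls. The dimmer was at 9.87, 9.90 and 9.77 in depolarized cultures at 30 min, against 9.46, 9.59 and 9.64 in controls, and at 9.36, 9.44 and 9.46 in depolarized cultures at 2 h, against 8.76, 9.19 and 8.87 in controls. At 2 h both rose, by 0.45 (SE 0.11, adjusted p = 0.00704) and 0.48 (SE 0.09, adjusted p = 0.00118), with no overlap between groups. At 30 min the dimmer rose by 0.29 (adjusted p = 0.0302), while the brighter, whose groups overlapped, differed by 0.26 (adjusted p = 0.119). The dimmer no longer passed when control replicate 1 (adjusted p = 0.129), control replicate 2 (0.0608), depolarized replicate 1 (0.0744) or depolarized replicate 2 (0.0997) was left out, and the brighter passed without depolarized replicate 3 (0.37, adjusted p = 0.0289).

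Id3 was at 12.47, 12.40 and 12.23 in depolarized cultures at 30 min, against 12.20, 12.17 and 12.02 in controls. Later, at 2 h, it was at 12.10, 12.27 and 12.14 in depolarized cultures, against 11.73, 11.94 and 11.84 in controls. Its groups did not overlap at either time, but its differences were smaller than those of Id1 and Id2. It rose by 0.24 at 30 min (SE 0.08, adjusted p = 0.0436) and by 0.34 at 2 h (SE 0.08, adjusted p = 0.00588). The call at 30 min was lost after quantile normalization (0.17, adjusted p = 0.143) and in a fit of only the arrays compared (adjusted p = 0.0566). Leaving out control replicate 1 ended it too (adjusted p = 0.0504), as did control replicates 2 (0.066), 3 (0.195) and 6 (0.0521) and depolarized replicates 1 (0.163), 2 (0.121) and 6 (0.0532). For Id2 and Id3 the response at 2 h exceeded that at 30 min by 0.10 to 0.20, and none of these 3 differences passed (adjusted p from 0.407 to 0.676).

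**Figure D2:**
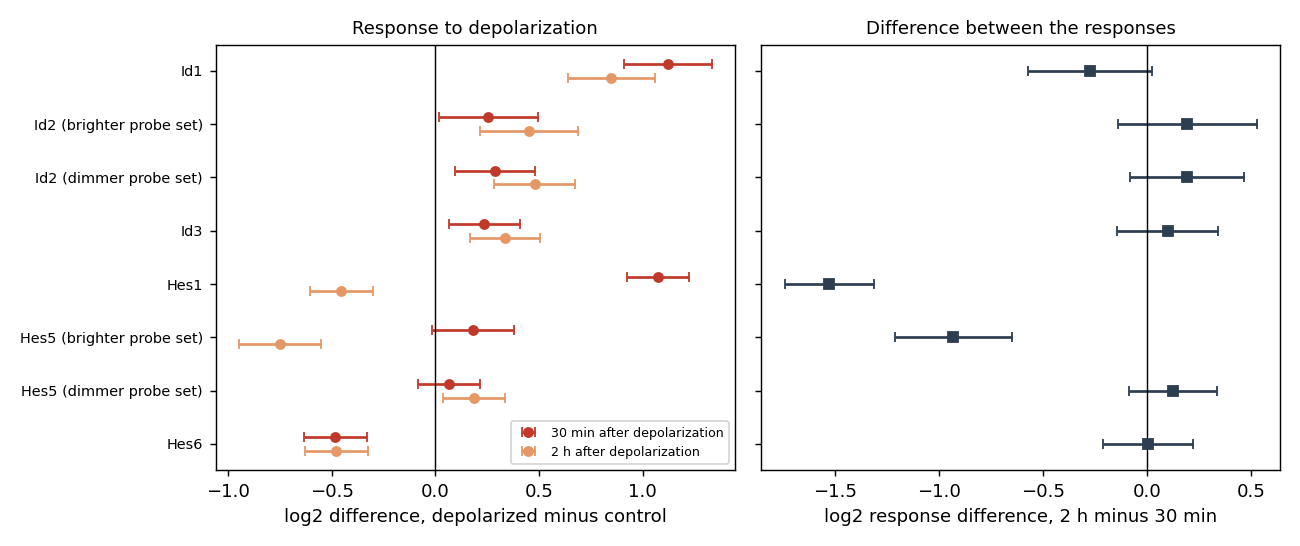
Left, log2 difference between depolarized and control cultures for each ID and HES probe set at 30 min and at 2 h; right, the difference between these responses (2 h minus 30 min). Points are estimates and bars 95% intervals of the fit to 12 arrays. The response of Hes1 crossed 0, at 1.07 and then -0.45, while that of Hes6 was at -0.48 at both times.

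Of the 8 probe sets, 5 passed at 30 min (24% of all probe sets did), 4 of them higher (10.8% of all) and 1 lower (13.1%). At 2 h 7 passed (25.2% of all), 4 higher (9.51%) and 3 lower (15.7%). The median difference of the 8 was 0.25 at 30 min and 0.26 at 2 h, against 0.01 and -0.00069 over all probe sets. Of the 4 ID probe sets, 3 rose at 30 min and 4 at 2 h. The response difference passed for 2 of the 8 (13% of all), the Hes1 and the brighter Hes5 probe set, both lower (6.79% of all, with 6.16% higher). Depolarized and control arrays did not overlap for 5 of the 8 at 30 min (36.8% of all) and for 8 of the 8 at 2 h (37.5%). Without control replicate 1 or 2 or depolarized replicate 1 or 2, only 3 of the 8 passed at 30 min, namely Id1, Hes1 and Hes6.

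The control cultures themselves differed between the collection times. Controls at 2 h were below those at 30 min for 6 of the 8 probe sets and above them for 0, where 35.3% of all probe sets passed, 17.2% lower and 18.1% higher. The control arrays of the 2 times did not overlap for those 6 (49.5% of all). The brighter Id2 probe set differed by -0.69 (SE 0.11, adjusted p = 0.000155), the dimmer by -0.62 (SE 0.09, adjusted p = 7.02e-05) and Id1 by -0.55 (SE 0.10, adjusted p = 0.000426). Id3 differed by -0.29 (adjusted p = 0.0099), the dimmer Hes5 probe set by -0.27 (adjusted p = 0.00679) and Hes1 by -0.19 (adjusted p = 0.0476). Id3 no longer passed without control replicate 4 (adjusted p = 0.0557). Hes1 no longer passed without control replicate 1 (0.151), 2 (0.113), 4 (0.112) or 5 (0.138), and without depolarized replicate 2 (0.0534) or 4 (0.0528), whose arrays enter the spread only. Hes6 (0.11, adjusted p = 0.243) and the brighter Hes5 probe set (0.04, adjusted p = 0.74) did not pass.

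Levels at 2 h were also set against the earlier controls, by range only. Id1 in depolarized cultures at 2 h (10.85 to 11.01) was above the controls of both times (10.53 to 10.76 at 30 min). Both Id2 probe sets in depolarized cultures at 2 h lay above their own controls but below the 30 min controls, with differences between the means of -0.24 and -0.14. Those of Id3 (12.10 to 12.27) overlapped the 30 min controls (12.02 to 12.20). Hes1, Hes6 and the brighter Hes5 probe set in depolarized cultures at 2 h were below the controls of both times. Ordered from high to low, Id1 ran depolarized 30 min, depolarized 2 h, control 30 min and control 2 h, with every neighbour apart. Hes1 ran depolarized 30 min, control 30 min, control 2 h and depolarized 2 h, also with every neighbour apart. For Hes6 the 2 control groups overlapped each other, as did the 2 depolarized groups. Between the depolarized cultures, with 2 h set against 30 min, Hes1 differed by -1.72 (SE 0.07, adjusted p = 3.56e-10), the brighter Hes5 probe set by -0.89 and Id1 by -0.82, and 5 of the 8 passed, all lower (41% of all probe sets passed, 21.8% lower and 19.2% higher). Arrays did not overlap for 6 of the 8 (49.9% of all). These arrays also enter the comparisons above.

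Markers of cell types differed between the cultures of different collection times. Over all genes at their brightest probe set, 19.1% were higher and 17.5% lower in controls at 2 h. Of 10 measured neuron markers, 10 were higher in controls at 2 h than at 30 min (median 1.07), and their mean level lay at 11.4 to 11.5 on the 2 h controls and at 10.3 to 10.5 on the 30 min controls. Of 10 progenitor markers 7 were lower and 1, Pax6, higher (median -0.40), with the proliferation marker Mki67 at -0.96 and Sox2 at -0.64. Of 8 oligodendrocyte lineage markers 6 were lower, Olig1 by the largest amount (-2.45). The median of all genes was -0.04, and 0 of 9 microglial markers passed. Their part in the lower ID levels was not tested, and collection time and any difference between preparations cannot be told apart. Between depolarized and control cultures, 0 of 10 progenitor markers passed at 30 min, and at 2 h 2 rose (Sox2 and Hopx) and 2 fell (Pax6 and Top2a). The mean level of the progenitor markers lay at 10.67 to 10.76 in depolarized cultures at 30 min, against 10.68 to 10.76 in controls, and at 10.42 to 10.49 in depolarized cultures at 2 h, against 10.37 to 10.50 in controls. Neuron markers rose in 1 of 10 at 30 min (10.9% of all genes rose and 15.4% fell) and in 2 of 10 at 2 h (9.59% and 18.4%), with 0 falls. The median difference of the neuron markers was 0.11 at 30 min and -0.10 at 2 h, against 0.01 and -0.02 over all genes. Of 8 dopaminergic markers 2 rose at 30 min, and 3 rose and 1 fell at 2 h. Of 8 oligodendrocyte lineage markers 0 rose and 1, Pdgfra, fell at 30 min (-0.58), and 0 rose and 2, Pdgfra (-0.75) and Cnp (-0.28), fell at 2 h. Their mean level lay at 8.10 to 8.15 in depolarized cultures at 30 min, against 8.22 to 8.28 in controls. At 2 h it lay at 7.60 to 7.64 in depolarized cultures, against 7.66 to 7.76 in controls. This mean was below the controls on every depolarized array at both times, but 7 of the 8 markers did not pass at 30 min and 6 at 2 h. The median difference of these markers was -0.04 at 30 min and 0.02 at 2 h, against 0.01 and -0.02 over all genes. Their part in the ID and HES responses was not tested.

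**Figure D3:**
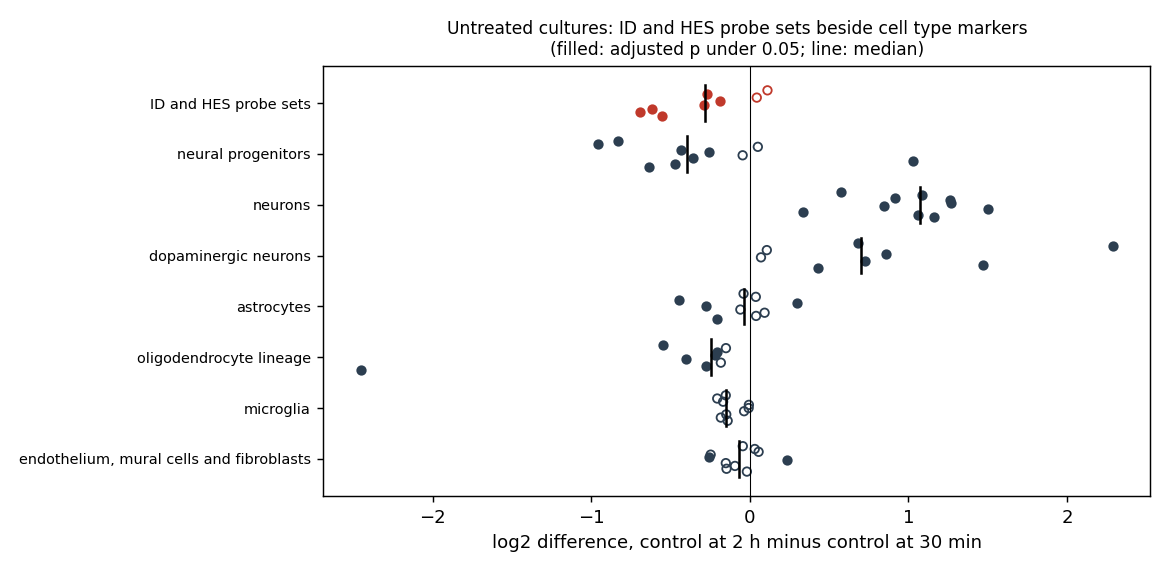
Log2 difference between control cultures at 2 h and at 30 min for the 8 ID and HES probe sets and for the measured genes of 7 marker lists; filled points passed adjusted p 0.05 and lines are medians. The ID and HES probe sets had a median of -0.28, progenitor markers of -0.40 and neuron markers of 1.07.

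Other genes of the Notch and BMP pathways were taken from lists of 130 symbols, of which 94 had a probe set with 1 symbol, each gene at its brightest. Over all 10411 genes taken this way, 10.9% rose and 15.4% fell at 30 min (median 0.01), and 9.59% rose and 18.4% fell at 2 h (median -0.02).

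Of 5 measured Notch ligands, 1, Jag1, rose at 30 min and 0 passed at 2 h. Jag1 was at 9.25, 9.53 and 9.42 in depolarized cultures at 30 min, against 8.90, 8.92 and 8.63 in controls, with no overlap (0.58, SE 0.11, adjusted p = 0.000707). Of 15 genes for Notch receptors and their processing, 1 rose and 3 fell at 30 min, and 3 rose and 0 fell at 2 h. The receptor gene Notch1 fell at 30 min (-0.37, adjusted p = 0.00639; its other probe set -0.40, adjusted p = 0.000166). Adam17, a protease that sheds membrane proteins, rose by 0.28 at 30 min (adjusted p = 0.00476) and by 0.22 at 2 h (adjusted p = 0.0235). At 2 h Adam17 did not pass without control replicate 6 (0.0847) or depolarized replicate 4 (0.0747) or 6 (0.0768).

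Lfng, a glycosyltransferase that modifies Notch receptors, fell at 30 min (-0.57, adjusted p = 0.0121) and rose at 2 h (0.56, adjusted p = 0.0141). Its groups overlapped at 30 min, with 9.60, 8.92 and 9.25 in depolarized cultures against 9.48, 10.06 and 9.92 in controls. When 1 array was left out, the fall missed the threshold without control replicate 2 (0.0691) or 3 (0.05001) or depolarized replicate 2 (0.0729), and the rise without depolarized replicate 4 (0.05004) or 6 (0.063), all adjusted p. Notch4 rose by 0.27 at 2 h (adjusted p = 0.0192), a call lost without control replicate 6 (0.0595) or depolarized replicate 6 (0.096), while another Notch4 probe set differed by 0.13 (adjusted p = 0.308).

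Of 12 nuclear factors and further targets of Notch, 4 rose and 2 fell at 30 min, while 0 rose and 5 fell at 2 h. Those that rose at 30 min were the coactivator Maml1 (0.57, adjusted p = 0.000196), the acetyltransferase Ep300 (0.44, adjusted p = 0.000285), the corepressor Tle1 (0.39, adjusted p = 0.000406) and Rbpj itself (0.32, adjusted p = 0.00345; named after its value was seen). At 2 h Ep300 fell (-0.34, adjusted p = 0.0031), as did the corepressors Tle4 (-0.31, adjusted p = 0.00073) and Tle2 (-0.36, adjusted p = 0.0038). A dimmer Ep300 probe set did not pass at either time (0.07 and 0.03), and a dimmer Tle4 probe set rose at 30 min (0.41, adjusted p = 0.00309), where the brightest fell (-0.30). At 2 h the dimmer Tle4 probe set did not pass (-0.12, adjusted p = 0.375). Other HES genes measured, Hes2 and Hes3, did not pass (differences from 0.05 to 0.13).

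Among 15 ligands of the BMP and TGF-beta family, 2 rose and 2 fell at 30 min, and 3 rose and 0 fell at 2 h. Bmp2, a ligand that induces ID genes in many cell types, was at 9.02, 9.00 and 8.70 in depolarized cultures at 30 min, against 7.80, 7.87 and 7.63 in controls. At 2 h it was at 9.14, 9.27 and 9.14 in depolarized cultures, against 8.33, 8.50 and 8.19 in controls. The groups were apart at both times, by 1.14 (SE 0.10, adjusted p = 3.1e-07) and 0.84 (SE 0.10, adjusted p = 1.66e-05). The dimmer Bmp2 probe set rose as well (0.64, adjusted p = 3.52e-05, and 0.27, adjusted p = 0.029). At the brighter Bmp2 probe set the 2 h controls lay above the 30 min controls, whereas those of Id1 lay below. A part of Bmp2 in the Id1 response was not tested. Inhbb, an activin subunit, fell at 30 min (-0.85, adjusted p = 2.86e-05) and rose at 2 h (0.63, adjusted p = 0.000645). Gdf15 rose by 0.42 at 30 min (adjusted p = 0.00074) and Tgfb1 by 0.53 at 2 h (adjusted p = 0.000142).

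Of 16 receptor and SMAD genes, 4 rose and 3 fell at 30 min, and 2 rose and 1 fell at 2 h. The activin receptor gene Acvr2a rose by 0.81 at 30 min (adjusted p = 0.0001). Smad4, the partner shared by all these pathways, rose by 0.37 (adjusted p = 0.000346) and 0.28 (adjusted p = 0.0042), and its dimmer probe set passed at 2 h (0.37) but not at 30 min (0.17, adjusted p = 0.186). Smad3, which transmits TGF-beta and activin signals, fell at 30 min (-0.68, adjusted p = 7.81e-06) and rose at 2 h (0.34, adjusted p = 0.00424), while its dimmer probe set passed at neither. Smad5, which transmits BMP signals, fell at 2 h at its brightest probe set (-0.32, adjusted p = 0.00159), but its 2 dimmer probe sets rose (0.24 and 0.49, adjusted p = 0.0244 and 0.00262), so that no direction is given for the gene.

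Of 16 inhibitors of BMP and TGF-beta signalling, 7 rose and 0 fell at 30 min, and 5 rose and 0 fell at 2 h (median 0.18 and 0.09). Fst, which encodes the activin-binding protein follistatin, rose by 0.49 (adjusted p = 5.97e-05) and 0.67 (adjusted p = 8.1e-06), and its dimmer probe set by 0.75 and 0.63. Skil, a corepressor of SMAD proteins, rose by 0.61 at 30 min (adjusted p = 1.61e-05), as did the ubiquitin ligase gene Smurf2 by 0.43 (adjusted p = 0.000173; its dimmer probe set by 0.93). At 2 h Tgif1, another corepressor, rose by 0.99 (SE 0.08, adjusted p = 7.81e-07). Nog, which encodes the BMP antagonist noggin, was at 9.27, 9.25 and 9.20 in depolarized cultures at 2 h, against 8.35, 8.05 and 8.36 in controls, with no overlap (0.99, SE 0.09, adjusted p = 2.67e-06). At 30 min the depolarized arrays of Nog overlapped the controls, and the difference did not pass (-0.24).

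The E proteins Tcf3, Tcf4 and Tcf12, the partners that ID proteins capture, and the fourth ID gene, Id4, did not pass at either time (0 of 4), with differences from -0.18 to 0.13 at 30 min and from -0.26 to 0.13 at 2 h. Id4 was higher in the 2 h controls than in the 30 min controls (0.53, adjusted p = 0.000231), whereas Id1, Id2 and Id3 were lower there. Of 11 measured proneural and neurogenic factors, 2 rose and 0 fell at 30 min, and 0 rose and 1 fell at 2 h; the other 13 of the 24 listed were not analysed here. Myt1l, a neuronal zinc finger factor, fell at 2 h (-0.71, SE 0.09, adjusted p = 5.55e-05). Neurog1 rose by 0.25 at 30 min (adjusted p = 0.0192) and lost that call without control replicate 1 (0.0595) or 3 (0.055) or depolarized replicate 1 (0.0975). Sox4 rose by 0.26 at 30 min (adjusted p = 0.0434), a call lost after quantile normalization (adjusted p = 0.131), with array weights (0.118), in a fit of only the arrays compared (0.0833) and without any of 7 single arrays (0.0504 to 0.208): control replicates 1, 2, 4 and 5 and depolarized replicates 1, 3 and 4. The other 2 Sox4 probe sets did not pass at 30 min (0.19, adjusted p = 0.0538, and 0.10, adjusted p = 0.476).

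**Figure D4:**
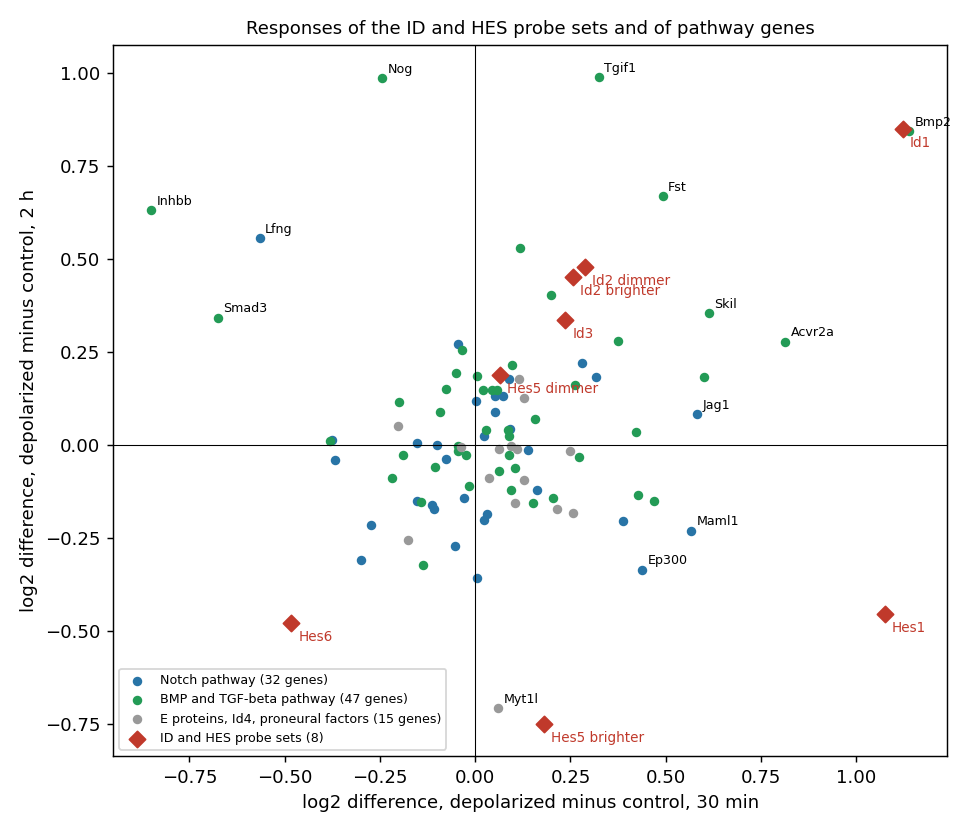
Log2 difference between depolarized and control cultures at 30 min (horizontal) and at 2 h (vertical) for the 8 ID and HES probe sets (diamonds) and for 94 genes of the Notch and BMP pathways and of neurogenic factors (circles, each at its brightest probe set). Id1 and Bmp2 lie together at the upper right, at 1.12 and 1.14 on the horizontal axis, and Hes1 lies at the lower right, at 1.07 and -0.45.

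Over the 12 arrays, the genes with profiles most like those of the 6 genes were found by Pearson correlation of log2 levels among 10405 other genes. All arrays of a group share their treatment and time, so these values describe the group pattern. Nearest to Id1 were Klf4 (r = 0.98), Eaf1 (0.97) and Zfp36 (0.97), and nearest to Hes1 were Pnrc1 (0.98), Dido1 (0.98) and Wasl (0.98). Pnrc1 had differences of 0.87 at 30 min and -0.57 at 2 h. Anapc4 (0.99), Vipas39 (0.98) and Galnt11 (0.98) were nearest to Hes6. For the brighter Id2 probe set they were Dhrs11 (0.95), Prdm2 (0.94) and the unnamed locus LOC102547155 (0.94), for Id3 Fzd4 (0.94), Ascl3 (0.93) and Phf7 (0.93), and for the brighter Hes5 probe set Eif4ebp3 (0.92), Fars2 (0.92) and Sf3a1 (0.92). The ID probe sets correlated with each other at 0.86 to 0.96. Hes6 correlated with them at -0.90 (Id1) to -0.65 (the brighter Id2 probe set) and with Hes1 at -0.41. With the brighter and the dimmer Hes5 probe set it correlated at 0.26 and -0.62.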

How the data were processed

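Biotin-labelled RNA of 12 samples was hybridized on single-colour Affymetrix rat arrays, 1 array per sample. The authors deposited log2 expression values per probe set, made with RMA (version not given) per the submitters' processing notes. A log2 scale fits the range of the values (4.41 to 14.58, array medians 8.32 to 8.43), and which arrays were normalized together is not given in the sources used here. Of 15923 probe sets, 57 array controls were left out. By the platform annotation, which can be old, 12783 probe sets had 1 symbol, 312 had several and 2771 had none; gene identifiers changed 0 symbols.

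All 12 arrays entered 1 fit with a mean for each of the 4 groups, by limma 3.58.1 in R 4.3.3 (8 residual degrees of freedom, empirical Bayes moderation, no replicate block, no further normalization). The fit was checked on simulated data with independent normal noise and shifts of known size. Such data hold no pairing and no difference between preparations, so the check cannot speak to these. All p-values are two-sided and adjusted by Benjamini-Hochberg over 15866 probe sets, with a threshold of 0.05. Differences carry the standard error (SE) of the fit. With arrays, precision is limited by their number. Replicates are pooled cultures, so p-values measure the spread between them.

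The genes, the lists and the comparisons were chosen with earlier results of these data known. Pathway genes were named by rule, up to 3 per list and treatment comparison with the smallest p past the threshold at the brightest probe set, with 3 most similar genes for each of the 6 genes. Rbpj, the other pathway genes outside this rule and the single marker genes were picked with their values in view. Alternatives were quantile normalization, median centring, a filter on the dimmest 25% of probe sets, a trended and robust prior, array weights, fits of only the arrays compared, the replicate number as a block, each array left out in turn and a threshold of 0.01. Promoter sequences came from RefSeq (GRCr8), which held all 6 genes.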

Additional observations from a re-analysis of the deposited data

Results flagged for a closer look

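The following results were singled out because the response to depolarization differed between the collection times. The test is of that difference (2 h minus 30 min, limma, adjusted over all probe sets, of which 13% passed). Different cultures were collected at the 2 times, so collection time and any difference between preparations cannot be told apart in it. Hes1 differed by -1.53 (adjusted p = 1.88e-07) and the brighter Hes5 probe set by -0.93 (adjusted p = 0.000206). Both calls held under every alternative fitted, from -1.57 to -1.43 for Hes1 and from -1.02 to -0.84 for the brighter Hes5 probe set. The dimmer Hes5 probe set did not pass and differed in the other direction (0.12, adjusted p = 0.51).

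Among the named Notch pathway genes, Lfng differed by 1.12 (adjusted p = 0.00252), Maml1 by -0.80 (0.000609), Ep300 by -0.77 (0.000123) and Tle1 by -0.59 (0.0006). A dimmer Ep300 probe set did not pass (-0.03, adjusted p = 0.922). Jag1 differed by -0.50 (0.0409), and no longer passed when any of 7 arrays was left out (0.0508 to 0.108): control replicates 3, 4, 5 and 6 and depolarized replicates 2, 3 and 5. Tle2 differed by -0.36 (0.046), a call lost after quantile normalization (0.0551), with a trended and robust prior (0.0575) and without any of 10 single arrays (0.0678 to 0.123), control replicate 1 and depolarized replicate 6 being the exceptions.

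Of the BMP and TGF-beta genes, Inhbb differed by 1.48 (adjusted p = 1.89e-05), Nog by 1.23 (1.62e-05), Smad3 by 1.02 (2.11e-05), Tgif1 by 0.66 (0.00106) and Smurf2 by -0.56 (0.000937). The dimmer Smad3 probe set did not pass (0.11, adjusted p = 0.69), and that of Smurf2 did (-1.12, adjusted p = 0.000247). Tgfb1 differed by 0.41 (0.0199), a call lost without control replicate 5 (0.0576). Gdf15 differed by -0.39 (0.0294), a call lost without any of 7 single arrays (0.0521 to 0.0802): control replicates 1, 2, 3, 5 and 6 and depolarized replicates 2 and 4. Of the neurogenic factors, Myt1l differed by -0.77 (0.000997). Sox4 differed by -0.44 (0.027), a call lost without any of 6 single arrays (0.0532 to 0.0796): control replicates 2, 4 and 5 and depolarized replicates 1, 4 and 5. The other 2 Sox4 probe sets did not pass (-0.16, adjusted p = 0.337, and 0.02, adjusted p = 0.945).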

How the results depend on the processing

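Under 21 alternatives, 12 of which leave out 1 array each, Id1, Hes1 and Hes6 kept their direction and their call in both treatment comparisons, as did the brighter Hes5 probe set, Id2 and Id3 at 2 h. Of 8 probe sets, 5 passed at 30 min. This number was 3 at a threshold of 0.01 and 3 to 6 when single arrays were left out; the lost calls were those of Id3 and the dimmer Id2 probe set, and the brighter Id2 probe set passed without depolarized replicate 3. Leaving out single arrays gave 7 to 8 calls at 2 h, 2 in each case for the response difference, 4 to 6 between controls and 5 to 6 between depolarized cultures. The response difference of Hes6, which did not pass, changed sign after median centring (-0.00033), with array weights (-0.0075) and without single arrays (-0.0402 to 0.0555). The control difference of the brighter Hes5 probe set, also not past the threshold, ran from -0.0111 to 0.137 without single arrays. With the replicate number as a block, calls were 5 at 30 min and 7 at 2 h in fits of only the arrays compared, 6 and 7 in a fit of all 12 arrays (chosen after seeing the data), and 2 for the response difference. Deviations from the group mean correlated at -0.32 to 0.24 between same-numbered arrays and at -0.42 to 0.35 between differently numbered ones. With groups of 3 arrays, this cannot decide whether the numbers pair the samples. The block ended calls of Adam17 (0.0753) and Notch4 (0.0598) at 2 h and of Lfng (0.103), Neurog1 (0.0659) and Sox4 (0.0578) at 30 min (adjusted p). Of 996 checks of the named pathway genes, 924 kept the call and 0 changed direction. These checks include the threshold of 0.01 on the unchanged fit, where the direction cannot change. Leaving out an array of the other collection time also leaves the difference of a treatment comparison unchanged and alters only its spread. Of the 49 gene comparisons of the named genes, 11 lost the call in at least 1 refit, the threshold of 0.01 aside. Signal over background could not be judged without detection calls.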
